A study of Apis mellifera with 12 samples.

Results

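This comparison sets the antennae of nurses against those of newly emerged workers of the honey bee, Apis mellifera, and covers 6 of the 12 RNA libraries of a study of worker tasks. The libraries were chosen by the titles of the samples, which name 3 nurse and 3 newly emerged libraries. Nurses are workers that feed and tend brood inside the hive, and newly emerged workers have just left the cell in which they developed. The other 6 libraries came from foragers, which collect food outside, and from defenders, 3 of each, and entered only the estimate of the spread between libraries and the levels given beside some results. No label gives a strain, a treatment, the age of the bees in days, their colony or how many bees went into a library. Task and age can therefore not be told apart, and the p-values cover no more than the spread among the libraries, which may be technical.

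The antenna is the main organ of smell of a bee. Odorants enter pores in its cuticle, cross a lymph that holds odorant binding proteins, and reach odorant receptors in the membrane of sensory neurons, where each receptor pairs with the co-receptor Or2. A bee leaves its cell with a soft, pale cuticle that hardens and darkens over the following days, while food glands in the head grow and begin to secrete the royal jelly that nurses feed to larvae.

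The newly emerged libraries held 66708813 to 101317842 counts and the nurse libraries 76019071 to 96490617. Levels are given as CPM, a gene's counts scaled to a common library size, for libraries 1, 2 and 3 in that order, and where 2 sets are set against each other the newly emerged libraries come first. A gene is called where edgeR gave an adjusted p under 0.05 over the 11271 genes tested. Across genes, log2 CPM correlated at 0.988 to 0.993 between libraries of the same group and at 0.953 to 0.968 between libraries of the 2 groups. The first principal component of the 6 libraries held 73.8% of the variance and put all newly emerged libraries on one side (-46.6 to -36.3) and all nurse libraries on the other (37.8 to 47.8). Nurse library 3 stood apart from nurse libraries 1 and 2 on the second component (10.8% of the variance), at 26.9 against -19.2 and -12.3. The co-receptor gene of olfactory neurons was found in every library. Or2 was at 323, 339.7 and 308 CPM in the newly emerged and 238, 189 and 101 CPM in the nurse libraries.

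Markers of other tissues also moved between the groups. Of 7 troponin genes taken as muscle markers, 4 were lower in nurses and none higher (20.7% of all tested genes were lower, as given below), and their summed level was 2639 to 3023 CPM in newly emerged and 1325 to 2056 CPM in nurse libraries. Of 9 neuron and synapse genes, 2 were higher and 2 lower, near the 18.9% and 20.7% of all tested genes, with sums of 3157 to 3307.5 and 3449 to 3992 CPM. PPO, for prophenoloxidase and the one marker of hemocytes, was at 22.2, 24.3 and 21.8 CPM in newly emerged and 48.8, 35.2 and 26.4 CPM in nurse libraries. The glial transporter gene Eaat-2 was at 18.8, 21.5 and 27.7 against 20.3, 20.6 and 21.97 CPM (adjusted p = 0.499). None of these markers was at 0 in any of the 6 libraries. In whole antennae, fewer cells of a type and less RNA per cell cannot be told apart, and the part of such shifts in the results below was not tested.

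Nurse antennae differed from newly emerged antennae in 4460 of the 11271 tested genes (39.6%), with 2126 higher in nurses (18.9% of tested genes) and 2334 lower (20.7%). A change of at least 2-fold was seen in 1319 of them (11.7% of tested genes). Higher genes made up 47.7% of the calls with the TMM factors used here and 63.9% with upper-quartile factors, which moved the median over all genes by 0.12 on the log2 scale. The libraries of the groups did not overlap in 52.3% of tested genes. Genes known only by a LOC identifier made up 10802 of the tested genes, and 39.1% of them were called, against 49.5% of the 469 genes with a symbol. Levels of 4 gene families are shown in the plot of group means.

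**Figure D1:**
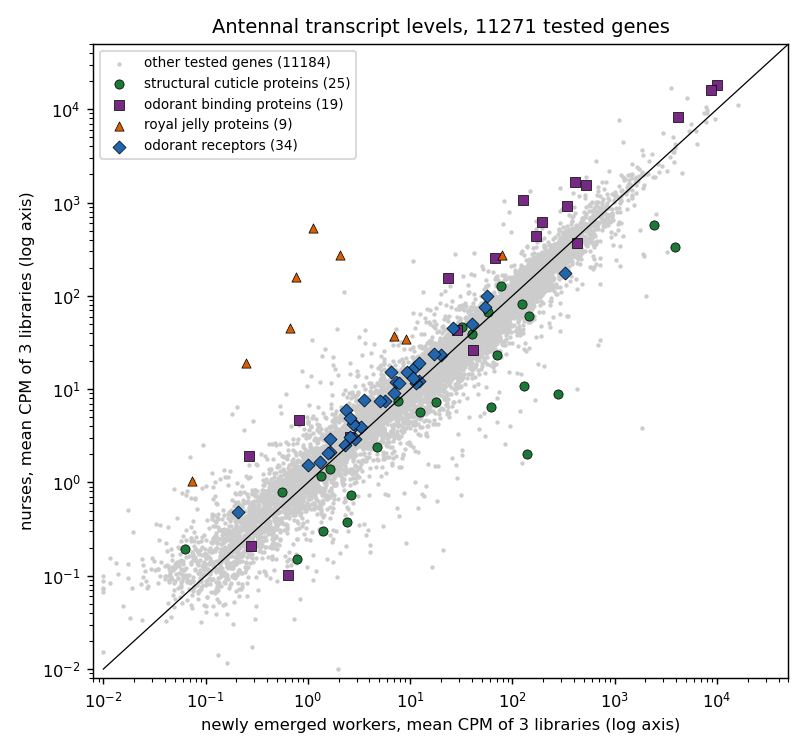
Mean CPM over 3 libraries in newly emerged workers (horizontal axis) and nurses (vertical axis), both on log axes, for 11271 tested genes, with means under 0.01 drawn at 0.01. The line marks equal levels. Most cuticle protein genes (circles) lie below it, and all 9 royal jelly protein genes (triangles), most odorant binding protein genes (squares) and most odorant receptor genes (diamonds) lie above it.

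The direction of change was counted by class of gene. Long non-coding RNA (lncRNA) genes, whose transcripts are not translated, were called higher in nurses more often than lower: 454 of 1540 rose (29.5%) and 115 fell (7.47%), with a median log2 fold change of 0.37 over all tested lncRNA genes. Of 9611 protein-coding genes, 1650 rose (17.2%) and 2212 fell (23.0%), with a median of -0.01. With upper-quartile factors the lncRNA split was 548 to 77, whereas the split of protein-coding genes turned to 2502 higher and 1659 lower. The share of all counts that fell on lncRNA genes was 1.51%, 1.47% and 1.51% in the newly emerged libraries and 2.25%, 2.58% and 2.29% in the nurse libraries, so the groups did not overlap.

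More lncRNA genes rose than fell at each level of expression. Protein-coding genes fell more often than they rose at 5 CPM and over, but less often below it. Among genes with a mean of 1 to 5 CPM, 34.7% of 476 lncRNA genes rose and 9.24% fell. Of 991 protein-coding genes in that class, 23.2% rose and 16.65% fell. Among genes with a mean of 20 CPM and over, 39.8% of 108 lncRNA genes rose and 10.2% fell, against 15.3% and 26.3% of 5711 protein-coding genes. Among genes with a mean under 1 CPM, 21.3% of 733 lncRNA genes rose and 4.23% fell, against 16.2% and 13.7% of 753 protein-coding genes. The 542 lncRNA genes whose bounds overlap no protein-coding gene rose in 31.2% of cases and fell in 8.30%, close to the 28.6% and 7.01% of the 998 that do overlap one. Leaving out 1 library gave 355 to 435 lncRNA genes that rose and 73 to 99 that fell; 73 was reached without newly emerged library 2.

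**Figure D2:**
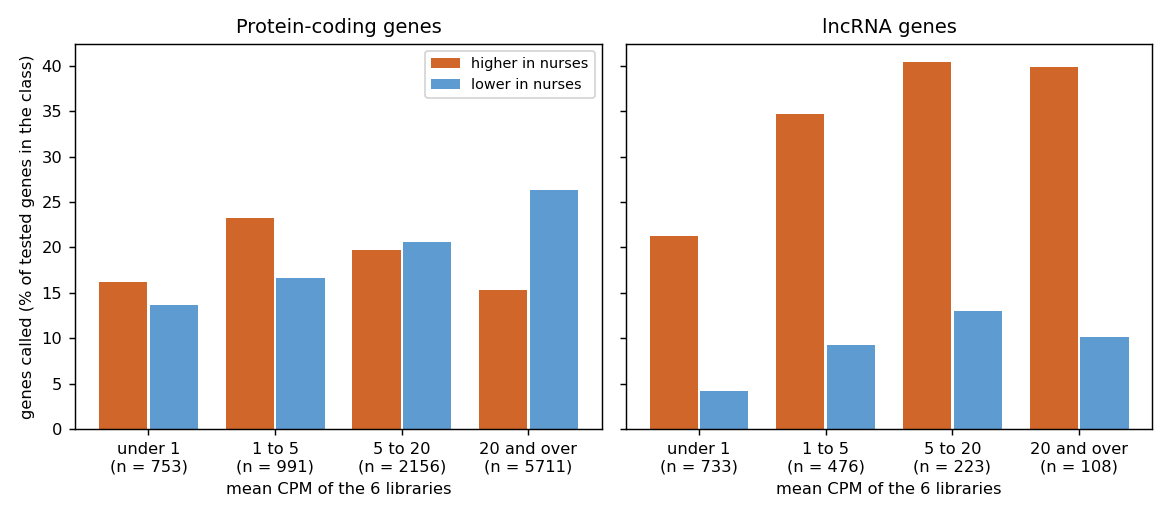
Share of tested genes called higher (orange) or lower (blue) in nurses, in percent, for protein-coding genes (left) and lncRNA genes (right) in 4 classes of mean CPM over the 6 libraries. More lncRNA genes were higher than lower in each class, from 21.3% against 4.23% under 1 CPM to 39.8% against 10.2% at 20 CPM and over.

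Most cuticle protein genes fell. Cuticle proteins bind chitin or coat the surface, and carry names by family: CPR for the Rebers and Riddiford chitin-binding domain, Cpap3 for chitin-binding proteins with 3 domains, and Apd for apidermins. Of 27 such genes with a symbol, 25 were tested; 16 fell and 3 rose (background 20.7% and 18.9% of tested genes), and the median log2 fold change over the 25 was -1.26, against 0.02 over all tested genes. The summed level went from 7203, 6880 and 8406 CPM in the newly emerged libraries to 1358, 1219 and 1652 CPM in the nurse libraries.

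The largest of these changes were near-complete losses. CPR6 was at 165, 102 and 147 CPM in newly emerged libraries and at 1.37, 1.64 and 3.09 CPM in nurse libraries (adjusted p = 3.96e-07 for a log2 fold change of -6.08, SE 0.36). Every nurse library was far under the lowest newly emerged library, which was library 2. CPR19 went from 254, 268 and 309 CPM to 9.05, 12.6 and 4.89 CPM (adjusted p = 2.92e-06 for a log2 fold change of -4.97, SE 0.40), and Cpap3-c from 119.6, 119.8 and 148 CPM to 7.71, 12.5 and 11.9 CPM (adjusted p = 4.83e-05 for a log2 fold change of -3.59, SE 0.41). CPR14 kept more of its level in nurses, with 562, 444 and 715 CPM after 2422, 2233 and 2558 CPM in newly emerged workers (adjusted p = 5.61e-06 for a log2 fold change of -2.07, SE 0.18). Forager and defender means for CPR14 were 524 ± 19.5 and 546 ± 115 CPM, and those for CPR19 were 1.15 ± 0.562 and 1.16 ± 0.506 CPM (SD, n = 3 each).

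Members of the same families did not all fall. Among apidermin genes, Apd-2 fell from 3886 ± 534 to 334 ± 71.95 CPM (SD, n = 3; adjusted p = 4.98e-06 for a log2 fold change of -3.54), whereas Apd-1 was at 26.7, 31.5 and 62.3 CPM in newly emerged and 31.7, 58.1 and 26.8 CPM in nurse libraries (adjusted p = 0.939). The Apd-1 libraries of both groups overlapped over nearly their whole range. In foragers and defenders Apd-1 was at 0.084 ± 0.0765 and 0.0815 ± 0.068 CPM. CPR22 rose from 77.2 ± 18.7 to 127 ± 28.5 CPM (adjusted p = 0.00924 for a log2 fold change of 0.72), and CPR28 fell less than most, from 123 ± 6.92 to 81.5 ± 11.4 CPM (adjusted p = 0.00668 for a log2 fold change of -0.59). The symbols apd-3 and Apd-3 in the table are 2 different genes; the first went from 1.19, 4.82 and 1.23 to 0.322, 0.568 and 0.251 CPM and the second from 3.04, 4.19 and 7.15 to 2.21, 3.48 and 1.56 CPM, with overlapping libraries in the second. Without newly emerged library 2 the log2 fold change of apd-3 was -1.67, adjusted p = 0.00551, where it was -2.67 with all libraries. Apd-3 passed narrowly (adjusted p = 0.0446) and lost its call in 4 of the 6 fits that leave out 1 library, namely those without newly emerged library 2, newly emerged library 3, nurse library 1 and nurse library 3 (adjusted p = 0.0716 to 0.217).

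Grp, whose product the files do not name, was at 41.4, 26.2 and 27.6 CPM in newly emerged and 0.676, 0.758 and 0.763 CPM in nurse libraries (adjusted p = 3.28e-08 for a log2 fold change of -5.44, SE 0.23). Its nurse libraries lay within a narrow band. Of 4 genes of silk fibroins, the proteins that larvae spin into cocoons, Fibroin3 and Fibroin2 fell, against 20.7% of all tested genes. Fibroin3 went from 0.775, 0.429 and 1.11 to 0.107, 0.108 and 0.199 CPM (adjusted p = 0.000986 for a log2 fold change of -2.47), with all nurse libraries under all newly emerged libraries. Fibroin2 fell by 1.09 on the log2 scale (adjusted p = 0.0155) and did not pass without nurse library 2 (adjusted p = 0.0592) or 3 (adjusted p = 0.0542).

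TyHyd fell and 3 yellow genes rose among the tanning genes. Of 6 tested, 4 rose and 2 fell (18.9% and 20.7% over all tested genes). The second that fell, Y-h (adjusted p = 0.0386), kept its call in 1 of the 6 fits that leave out 1 library, the one without newly emerged library 2, and lost it with upper-quartile factors (adjusted p = 0.102). TyHyd encodes tyrosine hydroxylase, which makes the precursor of the catechols that cross-link and colour new cuticle. It was at 2821, 4058 and 2940.2 CPM in newly emerged and 347, 278 and 267 CPM in nurse libraries (adjusted p = 6.88e-06 for a log2 fold change of -3.46, SE 0.31), and at 792 ± 298 and 447 ± 143 CPM in foragers and defenders (SD, n = 3). All nurse libraries were far under all newly emerged libraries. The yellow genes, which take part in insect pigmentation and are relatives of the royal jelly protein genes, included several that rose. Y-f went from 17.02, 18.3 and 16.5 to 65.02, 54.2 and 73.3 CPM (adjusted p = 9.48e-06 for a log2 fold change of 1.89, SE 0.17) and Y-y from 5.77, 5.65 and 7.39 to 22.2, 12.99 and 19.8 CPM (adjusted p = 5.6e-05 for a log2 fold change of 1.55, SE 0.18). Both had no overlap between groups. Y-e3, the neighbour of the royal jelly protein genes, rose from 0.484, 0.385 and 0.546 to 2.46, 2.22 and 3.28 CPM.

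FAR1 and Wat fell and Cyp4g11 rose. FAR1, a fatty acyl-CoA reductase gene, was at 71.3, 66.99 and 60.4 CPM in newly emerged and 33.3, 31.99 and 33.02 CPM in nurse libraries (adjusted p = 5.14e-05 for a log2 fold change of -1.01, SE 0.12). Wat, whose symbol is that of a Drosophila gene needed for a watertight airway lining, went from 218, 191 and 275 to 44.7, 60.9 and 46.8 CPM (adjusted p = 2.7e-05 for a log2 fold change of -2.17, SE 0.23). Cyp4g11 belongs to the CYP4G family, whose Drosophila member makes cuticular hydrocarbons, and moved the other way, from 54.7, 26.1 and 36.5 to 216, 139 and 158 CPM (adjusted p = 0.00083 for a log2 fold change of 2.13, SE 0.36). In all 3 genes the groups did not overlap.

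**Figure D3:**
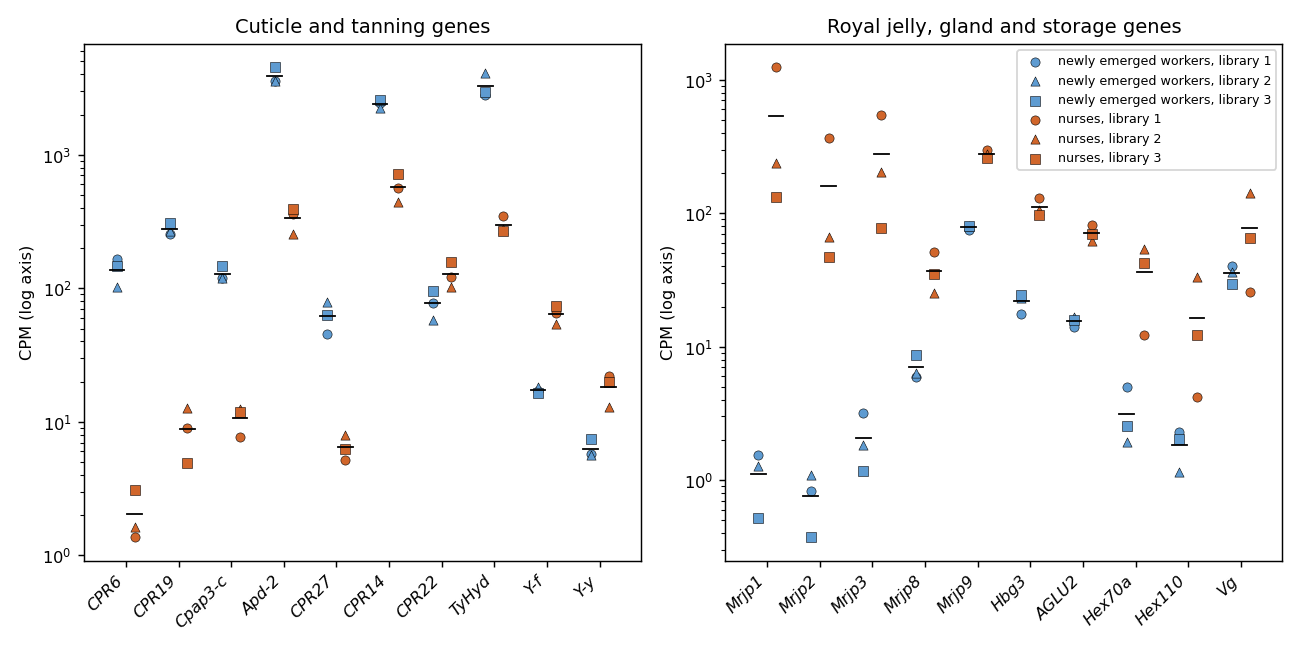
CPM on a log axis for 10 cuticle and tanning genes (left) and 10 royal jelly, gland and storage genes (right); each symbol is 1 library (circle, triangle and square for libraries 1, 2 and 3) of newly emerged workers (blue) or nurses (orange), and bars are means. Nurse values of CPR6 lie between 1.37 and 3.09 CPM, under all newly emerged values, and the nurse libraries keep the order 1, 2, 3 from high to low in Mrjp1, Mrjp2 and Mrjp3.

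All tested royal jelly protein genes rose in nurse antennae. Royal jelly proteins are the main proteins of the larval food made in the head glands. All 9 tested members were higher in nurses (background 18.9%), with a median log2 fold change of 6.07. Mrjp1 was at 1.53, 1.29 and 0.525 CPM in newly emerged and 1236, 238 and 132 CPM in nurse libraries (adjusted p = 0.00101 for a log2 fold change of 8.91, SE 1.53). Mrjp3 was at 3.21, 1.85 and 1.18 against 545, 205 and 77.7 CPM (adjusted p = 0.000831 for a log2 fold change of 7.04, SE 1.17), and Mrjp2 at 0.833, 1.09 and 0.375 against 366, 66.3 and 47.2 CPM (adjusted p = 0.000731 for a log2 fold change of 7.73, SE 1.26). In each of Mrjp1 to Mrjp7 nurse library 1 was the highest of the 3 nurse libraries and nurse library 3 the lowest. Without nurse library 1 the log2 fold change was 7.38, adjusted p = 0.00171 for Mrjp1, 6.23, adjusted p = 0.0011 for Mrjp2 and 6.08, adjusted p = 0.00186 for Mrjp3. These genes are close paralogs in a row, and reads could have been shared among them.

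Mrjp8 and Mrjp9 differed less between the nurse libraries. Mrjp9 was at 75.5, 80.9 and 80.3 CPM in newly emerged and 295, 276 and 257 CPM in nurse libraries (adjusted p = 6.91e-06 for a log2 fold change of 1.81, SE 0.16), and at 409.8 ± 85.7 and 449 ± 91.9 CPM in foragers and defenders. Mrjp8 was at 5.91, 6.4 and 8.68 against 51.2, 25.2 and 34.8 CPM (adjusted p = 4.64e-05 for a log2 fold change of 2.40, SE 0.27). Forager and defender means of Mrjp1 were 16.2 ± 22.2 and 31.8 ± 16.8 CPM, far under those of nurses, while those of Mrjp8 were 54.2 ± 12.7 and 52.6 ± 11.2 CPM. These groups share the fit with nurses and are given side by side only.

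LOC406093 and LOC406081, which the gene list names only by identifier, had the largest and the third-largest rise among LOC genes at or above 5 CPM in the higher group, and nurse library 1 was highest in both. LOC406093 was at 1.99, 2.13 and 2.68 CPM in newly emerged and 259, 39.4 and 30.9 CPM in nurse libraries (adjusted p = 0.000631 for a log2 fold change of 5.60, SE 0.89). LOC406081 was at 1.13, 0.695 and 1.49 against 78.1, 14.7 and 8.23 CPM (adjusted p = 0.00143 for a log2 fold change of 4.91, SE 0.89). Without nurse library 1 the log2 fold changes were 3.95, adjusted p = 0.0002 and 3.35, adjusted p = 0.00117. The alpha-glucosidase genes Hbg3 and AGLU2, whose enzymes split sucrose, rose evenly. Hbg3 went from 17.7, 23.3 and 24.6 to 130.2, 106 and 97.7 CPM (adjusted p = 9.71e-07 for a log2 fold change of 2.35, SE 0.16) and AGLU2 from 14.1, 16.7 and 15.9 to 81.4, 62.3 and 69.5 CPM (adjusted p = 5.99e-07 for a log2 fold change of 2.19, SE 0.14), with no overlap in either. Melt, for the venom peptide melittin, was at 0.0678, 0.0592 and 0.0428 CPM in newly emerged and 0.0858, 0.149 and 0.199 CPM in nurse libraries (adjusted p = 0.0568).

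Among storage protein genes, Hex70a and Hex110 rose, with another order of the nurse libraries. Hexamerins are storage proteins made by the fat body, and vitellogenin is the yolk protein that nurses use as a source for food secretions. Hex70a was at 4.97, 1.92 and 2.53 CPM in newly emerged and 12.2, 54.1 and 42.4 CPM in nurse libraries (adjusted p = 0.00434 for a log2 fold change of 3.52, SE 0.78), and Hex110 at 2.28, 1.15 and 2.05 against 4.19, 33.1 and 12.2 CPM (adjusted p = 0.00268 for a log2 fold change of 3.16, SE 0.65). Nurse library 2 was the highest and nurse library 1 the lowest for both. Without nurse library 2 the log2 fold change of Hex110 was 2.16, adjusted p = 0.00968. Vg, the vitellogenin gene, was at 40.6, 36.1 and 29.5 against 25.6, 141 and 65.6 CPM, with nurse library 1 under all newly emerged libraries and nurse library 2 far above them (adjusted p = 0.0634 for a log2 fold change of 1.13, SE 0.45). Its log2 fold change was 1.54, adjusted p = 0.00293 without nurse library 1 and 0.37, adjusted p = 0.446 without nurse library 2. Of 4 storage genes tested, 2 rose and none fell (18.9% of all tested genes rose), and their sum was 35.2 to 49.4 CPM in newly emerged libraries and 42.6, 229 and 121 CPM in the nurse libraries.

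Odorant binding protein genes mostly rose. These small soluble proteins carry odorants and pheromones through the lymph around the sensory neurons. Of 19 tested genes, 13 rose and 1 fell (background 18.9% and 20.7%), with a median log2 fold change of 1.36. Their summed level went from 22031, 25800 and 27736 CPM in newly emerged to 49192, 49410 and 50794 CPM in nurse libraries, so nurse libraries were close to each other and all above the highest newly emerged library. Obp1, which binds queen pheromone components, took 0.921%, 0.984% and 1.11% of all counts in newly emerged libraries and 1.78%, 1.80% and 1.85% in nurse libraries (adjusted p = 0.000357 for a log2 fold change of 0.89, SE 0.13). Obp2 went from 8768 ± 1117 to 16151 ± 733 CPM (adjusted p = 0.000444 for a log2 fold change of 0.88, SE 0.14).

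Obp21, Obp19 and Obp16 had the steepest rises. Obp21 was at 119, 114 and 152 CPM in newly emerged and 1101, 842 and 1268 CPM in nurse libraries (adjusted p = 7.32e-07 for a log2 fold change of 3.06, SE 0.20), and Obp19 at 21.5, 24.7 and 24.1 against 186, 98.3 and 185 CPM (adjusted p = 8.82e-06 for a log2 fold change of 2.74, SE 0.25). Obp16 went from 399, 388 and 444 to 1724, 1348 and 1947 CPM (adjusted p = 8.12e-07 for a log2 fold change of 2.03, SE 0.14). All 3 belong to the C-minus group, which lacks some of the cysteines that pair in the classic members. Obp18, of that group as well, was at 288, 422 and 566 against 379.5, 343 and 383 CPM, and its libraries overlapped (adjusted p = 0.559). In the main fit Obp10 alone fell, from 41.6 ± 6.48 to 26.1 ± 0.925 CPM (adjusted p = 0.000686 for a log2 fold change of -0.67). Obp13 was at 0.446, 0.251 and 1.21 CPM in newly emerged and 0.0214, 0.23 and 0.0522 CPM in nurse libraries and did not pass (adjusted p = 0.0689), although its groups did not overlap. It passed as lower with the 6 libraries alone (adjusted p = 0.0337) and with the replicate block (adjusted p = 0.0359).

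Odorant receptor genes rose by smaller amounts, and their co-receptor moved the other way. Of 34 tested receptor genes with a symbol, 20 rose and 1 fell (background 18.9% and 20.7% of tested genes), with a median log2 fold change of 0.51; leaving out 1 library gave 16 to 20 that rose and 1 that fell. The rises of the 20 ran from 0.32 to 1.35 on the log2 scale. Or11, the receptor for the main queen pheromone component known from drones, was at 23.7, 28.8 and 25.4 CPM in newly emerged and 43.4, 46.2 and 45.6 CPM in nurse libraries (adjusted p = 0.000117 for a log2 fold change of 0.80, SE 0.10). Or12 went from 52.1, 58.1 and 59.1 to 103, 93.1 and 103 CPM (adjusted p = 2.85e-05 for a log2 fold change of 0.82, SE 0.09), and Or107 from 7.52, 7.08 and 7.11 to 12.7, 11.8 and 11.6 CPM (adjusted p = 0.000221 for a log2 fold change of 0.73, SE 0.10). In these 3 genes all nurse libraries lay above all newly emerged libraries. The other 13 genes did not pass.

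Or2 was the 1 receptor gene that fell (adjusted p = 0.0157 for a log2 fold change of -0.88, SE 0.25). Its nurse libraries, at 238, 189 and 101 CPM, were spread over more than their difference from the lowest newly emerged library, 308 CPM, and none reached it. Nurse library 3 was the lowest. The sum of all 34 receptor genes was 657 to 711 CPM in newly emerged and 753, 724 and 612 CPM in nurse libraries. Or2 itself makes up a large part of that sum, so the low sum in nurse library 3 is not independent of Or2. The defender mean of Or2 was 366 ± 35.3 CPM and the forager mean 198 ± 46.8 CPM. Gr10, a taste receptor gene, rose from 2.85, 2.97 and 3.18 to 6.4, 4.9 and 5.16 CPM (adjusted p = 0.00148 for a log2 fold change of 0.87).

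Chemosensory proteins, another family of small soluble carriers of which some are also made in developing cuticle, fell in 4 of 5 genes (20.7% of all tested genes fell), and in 2 of 5 when newly emerged library 3 was left out. CSP2 was at 75.4, 67.6 and 102 CPM in newly emerged and 28.6, 31.99 and 31.2 CPM in nurse libraries (adjusted p = 4.33e-05 for a log2 fold change of -1.41, SE 0.16), and CSP4 at 1093, 1118 and 1234 against 552, 723 and 537 CPM (adjusted p = 0.00139 for a log2 fold change of -0.93, SE 0.17). CSP3 went from 6446 ± 1286 to 4192 ± 857 CPM and did not pass without newly emerged library 3 (adjusted p = 0.0501). CSP1, with 7167, 7993 and 9034 CPM in newly emerged and 9312, 8906 and 11232 CPM in nurse libraries, did not pass (adjusted p = 0.245), and its nurse values overlapped those of newly emerged workers.

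Among the genes taking the most counts, CYP6AQ1 and LOC409173 rose. The P450 gene CYP6AQ1 was at 5003, 5629.5 and 4606 CPM in newly emerged and 12321, 13540 and 13857 CPM in nurse libraries (adjusted p = 1.11e-05 for a log2 fold change of 1.38, SE 0.13). LOC409173, a protein-coding gene whose product is not named in the gene list, took 0.344%, 0.327% and 0.401% of all counts in newly emerged libraries and 1.76%, 1.56% and 1.68% in nurse libraries (adjusted p = 1.1e-07 for a log2 fold change of 2.26, SE 0.11). Its forager and defender means were 19243 ± 1809.6 and 16935 ± 809 CPM. LOC411083, which took the most counts in newly emerged libraries, went from 14916, 15691 and 17334 to 10818, 9635 and 12913 CPM and did not pass (adjusted p = 0.11), although its groups did not overlap. In the fit of the 6 libraries alone it passed as lower (adjusted p = 0.0160).

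Among genes of amine signalling, 5-HT1 and Dat rose and 5-ht7, 5-HT2beta and Dop3 fell. Serotonin, dopamine and octopamine tune the sensitivity of sensory neurons and of learning circuits in insects. Of 9 tested genes, 2 rose and 4 fell, where 18.9% and 20.7% of all tested genes did. The fourth that fell, the octopamine receptor gene Oa1 (adjusted p = 0.0485), lost its call in all 6 fits that leave out 1 library (adjusted p = 0.0677 to 0.123). 5-HT1, a serotonin receptor gene, was at 3.71, 3.95 and 4.12 CPM in newly emerged and 10.2, 14.3 and 10.0 CPM in nurse libraries (adjusted p = 3.22e-05 for a log2 fold change of 1.55, SE 0.17). Its relatives fell: 5-ht7 was at 8.19, 11.6 and 6.89 against 3.52, 2.34 and 1.02 CPM (adjusted p = 0.00158 for a log2 fold change of -1.95, SE 0.37), and 5-HT2beta at 3.11, 3.67 and 3.29 against 1.48, 1.68 and 2.06 CPM (adjusted p = 0.000913 for a log2 fold change of -0.95, SE 0.16). The dopamine receptor gene Dop3 went from 5.21, 6.23 and 4.43 to 1.8, 1.76 and 0.825 CPM (adjusted p = 0.000616 for a log2 fold change of -1.86, SE 0.30), while Dop1 was at 3.92, 3.65 and 4.34 against 4.37, 4.68 and 4.33 CPM (adjusted p = 0.32). Dat rose from 7.96, 11.1 and 7.1 to 25.01, 24.9 and 30.0 CPM (adjusted p = 2.21e-05 for a log2 fold change of 1.61, SE 0.17). In all 5 called genes named here the groups did not overlap.

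Crzr, SIFR and InR-2, receptor genes for peptide hormones, rose. Crzr, the receptor gene for the peptide corazonin, was at 50.1, 40.4 and 35.96 CPM in newly emerged and 93.6, 79.7 and 139 CPM in nurse libraries (adjusted p = 0.000606 for a log2 fold change of 1.31, SE 0.21), and SIFR, the receptor gene for SIFamide, at 68.6, 59.1 and 66.8 against 99.4, 118 and 94.7 CPM (adjusted p = 0.00217 for a log2 fold change of 0.68, SE 0.14). The insulin receptor gene InR-2 went from 11.4, 10.1 and 9.96 to 20.6, 21.1 and 12.3 CPM (adjusted p = 0.00559 for a log2 fold change of 0.77, SE 0.18), with nurse library 3 only just above the newly emerged libraries. Eth, the gene for ecdysis triggering hormone, which starts the behaviour by which insects shed an old cuticle, stood near 1 CPM in newly emerged libraries (1.07, 0.932 and 0.996 CPM) and lower in nurses (0.568, 0.487 and 0.585 CPM; adjusted p = 0.0217 for a log2 fold change of -0.87). Its call was lost without newly emerged library 1 (adjusted p = 0.0691) or nurse library 2 (adjusted p = 0.0702). Of 15 genes in this list, 5 rose and 2 fell, against 18.9% and 20.7% of all tested genes. The 2 that fell were Eth and Oa1, and none fell without newly emerged library 1 or nurse library 2 and 1 without newly emerged library 2, newly emerged library 3 or nurse library 1.

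Most genes in 2 lists of transmitter receptors, channels and transporters did not pass. Of 12 genes of glutamate, GABA, histamine and chloride channels and transporters, none rose and 3 fell. Of 10 nicotinic acetylcholine receptor subunits, 1 rose and 3 fell (18.9% and 20.7% over all tested genes, for both lists), with 1 that fell without newly emerged library 1 or 2. Glurb, with a symbol of a glutamate receptor, was at 91.2, 84.3 and 83.1 CPM in newly emerged and 22.1, 27.9 and 21.95 CPM in nurse libraries (adjusted p = 5.71e-05 for a log2 fold change of -1.85, SE 0.22). The groups were widely apart. The chloride channel gene pHCl went from 788 ± 74.8 to 555 ± 42.5 CPM and lost its call in 4 of the 6 fits that leave out 1 library, which were newly emerged 1 and 3 and nurse 1 and 2 (adjusted p = 0.0519 to 0.0828). The subunit gene nAChRa9 rose from 0.368, 0.562 and 0.589 to 1.49, 1.2 and 1.89 CPM (adjusted p = 0.00218 for a log2 fold change of 1.60). Para, the sodium channel gene of action potentials, was at 1554, 1505 and 1636 against 1498, 1605 and 1837 CPM (adjusted p = 0.562).

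Among 9 neuron and synapse genes, Syt1 and Syx1A rose and NLG-3 and NLG-5 fell. Only 1 rose when newly emerged 2 or 3 or nurse 2 or 3 was left out, and 1 fell when newly emerged 2 or nurse 3 was. Syt1, for the calcium sensor of vesicle release, went from 184 ± 14.1 to 234 ± 18.7 CPM (adjusted p = 0.00693 for a log2 fold change of 0.35), and the active zone gene brp was at 388, 320.0 and 350.4 against 444, 409 and 439.8 CPM (adjusted p = 0.0871). The brp gene passed with upper-quartile factors (adjusted p = 0.0191), with the 6 libraries alone (0.0390) and with the replicate block (0.0443). NLG-5, a neuroligin gene for a synaptic adhesion protein, fell from 4.36, 4.2 and 3.24 to 2.42, 2.15 and 1.67 CPM (adjusted p = 0.00142 for a log2 fold change of -0.92, SE 0.17). NOS, for nitric oxide synthase, was at 39.7, 42.4 and 40.8 CPM in newly emerged and 26.1, 28.9 and 18.8 CPM in nurse libraries (adjusted p = 0.0151 for a log2 fold change of -0.74); without nurse library 3 its adjusted p was 0.0593. Opsins are light-sensing receptors. Blop, for the blue opsin, was at 5.38, 6.58 and 10.3 against 4.68, 2.61 and 2.43 CPM (adjusted p = 0.00717 for a log2 fold change of -1.20). Lop1, for a long-wavelength opsin, was at 1.73, 1.85 and 4.21 CPM in newly emerged and 42.04, 11.8 and 3.26 CPM in nurse libraries, with nurse library 1 far above the rest and nurse library 3 inside the newly emerged range (adjusted p = 0.029 for a log2 fold change of 2.87, and without nurse library 1 1.52, adjusted p = 0.155). It also did not pass without newly emerged library 1 (adjusted p = 0.0888) or 2 (adjusted p = 0.0844).

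Troponin genes, for the calcium switch of muscle filaments, fell in 4 of 7, against 20.7% of all tested genes. TpnCIIIa was at 821, 898 and 1046 CPM in newly emerged and 404, 367 and 495 CPM in nurse libraries (adjusted p = 5e-05 for a log2 fold change of -1.13, SE 0.13), and TpnCIIa at 55.3, 43.4 and 51.7 against 15.2, 17.8 and 24.7 CPM (adjusted p = 0.00011 for a log2 fold change of -1.38, SE 0.18). Both groups were clear of each other. TpnT went from 983, 820.1 and 932 to 337, 491 and 636 CPM, with a wide spread among nurses (adjusted p = 0.016 for a log2 fold change of -0.90, SE 0.26). It did not pass without newly emerged library 1 (adjusted p = 0.0572) or nurse library 1 (adjusted p = 0.0534). TpnCI was at 196, 219 and 220.0 against 170.2, 301 and 282 CPM and did not pass (adjusted p = 0.481).

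PDHB, CytC and ATP5G2, genes of mitochondrial energy supply, fell. Of 13 tested genes in that list, 6 fell and none rose (20.7% and 18.9% of all tested genes), and 5 to 8 fell when 1 library was left out. PDHB, for a subunit of pyruvate dehydrogenase, which feeds the citric acid cycle, was at 133, 136 and 136 CPM in newly emerged and 68.6, 67.9 and 70.7 CPM in nurse libraries (adjusted p = 1.2e-05 for a log2 fold change of -0.97, SE 0.09). CytC, for the electron carrier cytochrome c, was at 285, 297 and 327 against 154, 147 and 174 CPM (adjusted p = 7.99e-05 for a log2 fold change of -0.94, SE 0.11), and ATP5G2, for a subunit of ATP synthase, at 999, 1041 and 1292 against 597, 625 and 622 CPM (adjusted p = 0.000143 for a log2 fold change of -0.85, SE 0.11). In these 3 genes every nurse library was under every newly emerged library. Vha16, for a subunit of the vacuolar proton pump, fell from 719, 757 and 689 to 433, 394 and 329 CPM (adjusted p = 4.09e-05 for a log2 fold change of -0.90, SE 0.10).

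Cytosolic ribosomal protein genes went the other way. Of 7 tested, 5 rose (18.9% of all tested genes) and none fell (20.7%), in each setting with 1 library left out as well. RpL32 was at 59.3, 53.2 and 63.2 CPM in newly emerged and 89.02, 90.3 and 108 CPM in nurse libraries (adjusted p = 0.000421 for a log2 fold change of 0.71, SE 0.11), and RpL35 at 73.1, 78.7 and 92.6 against 115, 118 and 134 CPM (adjusted p = 0.00105 for a log2 fold change of 0.59, SE 0.10). No nurse library fell into the newly emerged range for either. Rpl39 was at 41.3, 41.7 and 36.9 against 31.5, 31.9 and 61.4 CPM, with nurse library 3 high and the other nurse libraries low (adjusted p = 0.876).

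Cat, Tpx-4 and Gtpx1 rose among genes that remove oxidants. Of 11 tested oxidative defence genes, 5 rose and 4 fell, where 18.9% and 20.7% of all tested genes did. Cat, for catalase, which breaks down hydrogen peroxide, was at 376, 375 and 408 CPM in newly emerged and 694, 555 and 657 CPM in nurse libraries (adjusted p = 0.000111 for a log2 fold change of 0.72, SE 0.09). Tpx-4, a thioredoxin peroxidase gene, went from 120.3, 137 and 159 to 324, 334 and 369 CPM (adjusted p = 4.44e-05 for a log2 fold change of 1.30, SE 0.15), and Gtpx1, named as a glutathione peroxidase, from 306, 295 and 343 to 531, 500.4 and 598 CPM (adjusted p = 0.000133 for a log2 fold change of 0.79, SE 0.10). All 3 had no overlap. Sod2, for the mitochondrial superoxide dismutase, fell from 96.02 ± 6.89 to 72.2 ± 6.14 CPM (adjusted p = 0.00371 for a log2 fold change of -0.41), and Trxr-1, for thioredoxin reductase, fell from 317 ± 19.8 to 210.4 ± 16.2 CPM (adjusted p = 0.00273 for a log2 fold change of -0.59). GstS4, a glutathione transferase gene, fell from 7.08, 6.45 and 8.15 to 1.56, 2.06 and 2.17 CPM (adjusted p = 0.00029 for a log2 fold change of -1.91). GstS1, of the same family, rose (adjusted p = 0.0303 for a log2 fold change of 1.25). It kept its call in only 2 of the 6 fits that leave out 1 library and lost it with the 6 libraries alone (adjusted p = 0.0585).

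Of 5 antimicrobial peptide and recognition genes, 2 rose and 1 fell (18.9% and 20.7% over all tested genes). Apid1 and Def1 were uneven among newly emerged libraries. Apid1, for the antimicrobial peptide apidaecin, was at 9.59, 18.99 and 2.35 CPM in newly emerged and 36.5, 40.1 and 35.8 CPM in nurse libraries (adjusted p = 0.00944 for a log2 fold change of 1.87, SE 0.48; without newly emerged library 2 2.66, adjusted p = 0.00134). The nurse values were close together, and the newly emerged values were spread widely below them. Def1, for the peptide defensin, was at 27.97, 89.7 and 6.4 against 62.6, 16.7 and 30.5 CPM, with full overlap. PGRP-S3, for a short peptidoglycan recognition protein, rose from 4.13, 4.6 and 6.48 to 13.98, 12.9 and 10.9 CPM (adjusted p = 0.000207 for a log2 fold change of 1.31), whereas Pgrp-s2 fell from 25.4 ± 2.11 to 15.9 ± 2.997 CPM (adjusted p = 0.0083 for a log2 fold change of -0.68). The iron carrier gene Tsf1, for transferrin, rose from 672 ± 179 to 1210.1 ± 63.9 CPM (adjusted p = 0.0022 for a log2 fold change of 0.85).

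E74 fell among the hormone response genes in every fit that left out 1 library. Juvenile hormone and ecdysteroids act through transcription factors. Of 8 tested genes, 3 rose and 1 fell (background 18.9% and 20.7%); the number that rose was 0 when newly emerged library 1 was left out, 1 when newly emerged 2, nurse 1 or nurse 3 was, and 2 otherwise. E74, an early ecdysone-response gene, was at 160.2, 151 and 161 CPM in newly emerged and 75.7, 110.4 and 87.95 CPM in nurse libraries (adjusted p = 0.000528 for a log2 fold change of -0.79, SE 0.13). Kr-h1, the main transcription factor gene downstream of juvenile hormone, was at 11.3, 17.8 and 14.6 against 44.6, 16.4 and 33.7 CPM, with nurse library 2 inside the newly emerged range (adjusted p = 0.0126 for a log2 fold change of 1.12, SE 0.31). It did not pass without newly emerged library 1 (adjusted p = 0.0544) or nurse library 1 (adjusted p = 0.0534). The receptor gene Ecr was at 517, 469 and 552 against 514, 583 and 468 CPM (adjusted p = 0.87).

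Of 22 transcription factor and sex determination genes, 8 rose and 3 fell (18.9% and 20.7% over all tested genes), with 4 that rose without nurse library 2, 5 without newly emerged library 1, and 6 to 8 without any one of the others. Dsx, for doublesex, which sets sex-specific traits in insects, was at 68.4, 71.6 and 68.1 CPM in newly emerged and 144, 118 and 117 CPM in nurse libraries (adjusted p = 8.02e-05 for a log2 fold change of 0.87, SE 0.11). Its splicing partner gene tra2 rose from 64.7 ± 3.26 to 87.4 ± 6.72 CPM (adjusted p = 0.000982 for a log2 fold change of 0.43), and nanos, known for its role in germ cells and embryos of Drosophila, rose from 142 ± 12.2 to 218 ± 16.7 CPM (adjusted p = 0.00235 for a log2 fold change of 0.62). Dll, for the factor that patterns the tips of limbs and antennae in insects, was at 657, 652 and 611 against 692, 821 and 696 CPM (adjusted p = 0.147). Of 11 genes of DNA methylation and chromatin, 4 rose and 1 fell, beside the same 18.9% and 20.7%, and the number that rose was 1 when newly emerged 1, newly emerged 2 or nurse 2 was left out and 3 or 4 otherwise. Su(var)3-9, for a histone methyltransferase, rose from 148 ± 7.72 to 199 ± 12.8 CPM (adjusted p = 0.00178 for a log2 fold change of 0.42). Clock gene levels did not pass: Per was at 84.3, 81.9 and 76.4 CPM in newly emerged and 91.95, 69.4 and 77.1 CPM in nurse libraries (adjusted p = 0.925 for a log2 fold change of -0.02), and its fold change turned to 0.10 with upper-quartile factors.

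Several genes known only by a LOC identifier nearly vanished from nurse antennae. LOC107965367 was at 1618, 1519 and 2439 CPM in newly emerged libraries and 2.31, 5.16 and 3.94 CPM in nurse libraries (adjusted p = 1e-07 for a log2 fold change of -8.94, SE 0.43). LOC552685 was at 269, 407 and 599 against 6.3, 17.9 and 6.07 CPM (adjusted p = 8.48e-06 for a log2 fold change of -5.40, SE 0.49; without nurse library 2 -6.10, adjusted p = 4.89e-06), and LOC100578625 at 75.6, 123 and 171 against 1.25, 2.46 and 1.11 CPM (adjusted p = 2.17e-06 for a log2 fold change of -6.27, SE 0.48). In all 3 the nurse values were a small remainder of the newly emerged ones. Their forager means were 0.696 ± 0.306, 0.12 ± 0.0439 and 0.308 ± 0.0763 CPM (SD, n = 3). The 10 LOC genes with the largest falls were all protein-coding, and 4 of the 10 with the largest rises were lncRNA genes. These lists hold only genes at or above 5 CPM in the higher group, and lncRNA genes were few at such levels. Among all tested genes, 223 lncRNA and 2156 protein-coding genes had a mean of 5 to 20 CPM. At 20 CPM and over there were 108 and 5711. An absence of lncRNA genes among 10 falls is therefore no result of its own.

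Several LOC genes rose from low levels. LOC551268 was at 7.08, 11.99 and 13.03 CPM in newly emerged and 255, 220.3 and 239 CPM in nurse libraries (adjusted p = 1.01e-07 for a log2 fold change of 4.48, SE 0.22), and LOC551044 at 1.78, 1.91 and 2.06 against 33.9, 43.5 and 53.5 CPM (adjusted p = 1.72e-06 for a log2 fold change of 4.51, SE 0.33). LOC102656717, an lncRNA gene, went from 0.281, 0.148 and 0.182 to 8.91, 3.84 and 6.77 CPM (adjusted p = 4.46e-06 for a log2 fold change of 4.95, SE 0.42). The groups were clear of each other in these genes. At higher levels, LOC102653599 took 0.108%, 0.100% and 0.128% of all counts in newly emerged libraries and 0.677%, 0.936% and 0.653% in nurse libraries (adjusted p = 1.08e-06 for a log2 fold change of 2.80, SE 0.19).

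Some called genes of the same direction lay next to each other. In the order of genes on the chromosomes, 11197 tested genes could be placed, and 14 stretches held at least 6 consecutive tested genes that were all called in the same direction, 10 higher and 4 lower. The longest held 9 genes that rose: Y-e3 followed by Mrjp3, Mrjp1, Mrjp4, Mrjp6, Mrjp5, Mrjp2, Mrjp7 and Mrjp8. A stretch of 7 LOC genes from LOC410368 to LOC725353 fell, with log2 fold changes from -5.36 to -2.34. In it LOC725309 went from 898, 642 and 608 to 23.2, 45.1 and 31.9 CPM and LOC410368 from 50.4, 46.6 and 46.6 to 5.2, 6.12 and 4.27 CPM. A stretch of 7 LOC genes from LOC100577544 to LOC726125 rose, with log2 fold changes of 1.76 to 3.62. A stretch of 6 with 5 lncRNA genes held LOC102656717 and rose by 0.59 to 4.95. Another stretch, of 6 genes that fell, held apd-3 and Apd-3 and had a median log2 fold change of -1.04. Its last gene, Apd-3, kept its call in only 2 of the 6 fits that leave out 1 library. Without that call the stretch is under the minimum of 6. Neighbouring paralogs can share reads, and overlapping genes cannot be told apart where counting ignored strand, which is not stated here; the part of either in these stretches was not tested.

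Splicing was compared through inclusion levels, the fraction of transcripts that contain an exon or exon part, or that keep an intron. The tables hold a fraction per event and library with no statement of how it was computed, and it is read here as inclusion. The deposited tables hold 491 events in 332 genes for all libraries, with no missing value. The rule by which the authors kept these events is not stated in the tables, so the shares below describe a selected set. Of the 491 events, 322 differed between nurses and newly emerged workers (65.6%; limma, adjusted p under 0.05), 174 with a higher level in nurses (35.4%) and 148 with a lower level (30.1%). The 3 nurse libraries did not overlap the 3 newly emerged libraries in 333 events (67.8%). The median absolute difference over all 491 was 0.207. How many reads stand behind each level is unknown.

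The directions were counted by type of event, to be read beside 35.4% higher and 30.1% lower over all 491 events. Of 26 retained introns, 13 had a lower level in nurses and 2 a higher one. Of 90 pairs of mutually exclusive exons, 34 were higher and 20 lower; which exon of a pair the level counts is not stated in the tables, so only the size of those shifts can be read. Skipped exons, the largest class with 288 events, split into 111 higher and 88 lower. Alternative 3' sites (43 events) gave 14 and 11, and alternative 5' sites (44 events) gave 13 and 16. Of the 199 skipped exons that were called, 100 had a length that is a multiple of 3, which keeps the reading frame, and of all 288 events 161 did.

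Change in splicing and change in level went separately for many genes. Of the 332 genes with an event, 52.4% were called in level, and of the 227 genes with a called event 52.4% were called in level as well; over all tested genes it was 39.6%. The genes with events had a median level of 74.2 CPM in newly emerged workers against 21.6 CPM over all tested genes.

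The widest shift among skipped exons was in LOC113218812. An exon of 39 bases at positions 10815025 to 10815063 in the authors' tables had inclusion levels of 0.17, 0.142 and 0.216 in newly emerged and 0.784, 0.812 and 0.814 in nurse libraries (difference 0.627, SE 0.0387, adjusted p = 1.79e-06). A second exon of the same gene, 225 bases long, had 0.174, 0.154 and 0.227 against 0.717, 0.769 and 0.787 (difference 0.573, SE 0.0397, adjusted p = 3.16e-06). Nurse and newly emerged libraries were far apart for both, while the level of the gene did not pass (adjusted p = 0.0897 for a log2 fold change of 0.22; without nurse library 1 0.32, adjusted p = 0.0234). Forager and defender means of the first exon were 0.847 ± 0.0485 and 0.801 ± 0.0295. LOC552286 had a skipped exon at 0.297, 0.373 and 0.29 against 0.929, 1.0 and 0.75 (difference 0.573, SE 0.123, adjusted p = 0.00283), and LOC724646 one at 0.114, 0 and 0.237 against 0.437, 1.0 and 0.564 (difference 0.55, SE 0.128, adjusted p = 0.00413), where single libraries stood at exactly 0 or 1.

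An exon of the period gene had a lower level in nurses, while the level of the gene did not pass. Per encodes a core protein of the circadian clock. Its exon of 113 bases, at positions 10042398 to 10042510, had levels of 0.704, 0.938 and 0.735 in newly emerged libraries and 0.446, 0.514 and 0.496 in nurse libraries (difference -0.307, SE 0.0574, adjusted p = 0.00155). Versions of the same exon with a longer end, 128 and 131 bases, gave differences of -0.234 and -0.245 and are not independent of it. All nurse libraries were under all newly emerged libraries, of which library 2 stood highest. Forager and defender means were 0.456 ± 0.0372 and 0.51 ± 0.0365.

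GluCl, for a glutamate-gated chloride channel, had exons of equal length that moved in opposite directions. An exon of 68 bases at 5206092 to 5206159 rose from 0.302, 0.312 and 0.304 to 0.538, 0.57 and 0.52 (difference 0.237, SE 0.0364, adjusted p = 0.000689), and another of 68 bases at 5195287 to 5195354 fell from 0.554, 0.516 and 0.566 to 0.423, 0.441 and 0.337 (difference -0.145, SE 0.04, adjusted p = 0.0092). The 3 libraries of each group were close together in the first. Pairs of mutually exclusive exons in this gene moved by 0.205 (adjusted p = 0.00155) and 0.185 (adjusted p = 0.00161). Both pairs contain the exon at 5206092 to 5206159, and the second also contains the exon at 5195287 to 5195354. These pairs are therefore not independent of the skipped exons. The level of the gene did not pass (adjusted p = 0.793 for a log2 fold change of 0.05, SE 0.14).

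Troponin transcripts also differed in exon use. The 31-base exon of TpnT at 2068303 to 2068333 had levels of 0.329, 0.373 and 0.353 in newly emerged and 0.66, 0.738 and 0.733 in nurse libraries (difference 0.359, SE 0.0365, adjusted p = 0.000117), and forager and defender means were 0.917 ± 0.0313 and 0.894 ± 0.0105. An exon of 79 bases in the same gene was at 0.689, 0.716 and 0.736 against 0.655, 0.654 and 0.64 and did not pass (adjusted p = 0.2), although the groups did not overlap. TpnI, for troponin I, showed a 101-base exon falling from 0.813, 0.828 and 0.809 to 0.607, 0.631 and 0.585 (difference -0.209, SE 0.0421, adjusted p = 0.00203). A second event on the same exon gave a smaller difference of -0.131 (adjusted p = 0.0144) and is not independent of it. These shifts stand beside the lower sum of the 7 muscle markers given above, and the part of that sum in them was not tested.

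Syx1A, Burs and Dnmt1a carried shifts at splice sites or introns. Syx1A, for syntaxin 1A, a membrane protein of vesicle fusion, had an alternative 3' site that differs by 271 bases, with levels of 0.412, 0.365 and 0.435 in newly emerged and 0.719, 0.705 and 0.666 in nurse libraries (difference 0.293, SE 0.0357, adjusted p = 0.0002). Burs, for a subunit of bursicon, the hormone that triggers hardening of new cuticle, had a site that differs by 21 bases, with levels of 0.54, 0.623 and 0.492 against 0.799, 0.898 and 0.846 (difference 0.296, SE 0.0514, adjusted p = 0.00125), at low levels of the gene (4.36, 5.07 and 3.54 against 4.03, 3.64 and 3.09 CPM). A retained-intron event of the DNA methyltransferase gene Dnmt1a had levels of 0.869, 0.927 and 0.875 in newly emerged and 0.627, 0.571 and 0.571 in nurse libraries (difference -0.301, SE 0.0633, adjusted p = 0.0026).

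Dscam, for a cell adhesion protein with banks of alternative exons that act in neuronal wiring and immunity, held 20 of the 491 events. All 8 skipped exons were called higher in nurses, and of 12 exclusive pairs 4 were higher and 1 lower (35.4% and 30.1% of all 491 events). The 4 pairs that were higher all contain the same exon, which is part of 7 of the 12 pairs, so they are not independent of each other. Of the 8 skipped exons, 7 lie close together, between 11870504 and 11875453, and may not be independent either. These counts are thus not counts of separate events, as the shares of all events would need. The pair that was lower (adjusted p = 0.0499) kept its call in 1 of the 6 fits that leave out 1 library and lost it on the logit scale (adjusted p = 0.0648), and of the 4 that were higher, 1 kept it in all 6 fits and the others in 5, 3 and 2. The 162-base exon at 11875292 to 11875453 had levels of 0.513, 0.209 and 0.44 in newly emerged and 1.0, 0.744 and 0.793 in nurse libraries (difference 0.458, SE 0.118, adjusted p = 0.00673). In 7 of the 8 skipped exons nurse library 1 stood at exactly 1, while nurse libraries 2 and 3 lay below it. Without nurse library 1 that exon's difference was 0.381, adjusted p = 0.027, and that of the 165-base exon was 0.274, adjusted p = 0.0371. For the other 6 skipped exons the call was lost in at least 1 setting with a library left out. Among them, the exons that start at 11873442, 11828538 and 11870504 also lost it on the logit scale (adjusted p = 0.0535, 0.0828 and 0.0650). The Dscam gene itself was at 272, 232 and 238 against 274, 289 and 186 CPM (adjusted p = 0.961). Over all 491 events, nurse library 1 alone among nurses stood at exactly 1 in 20, nurse library 2 in 8 and nurse library 3 in 3.

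**Figure D4:**
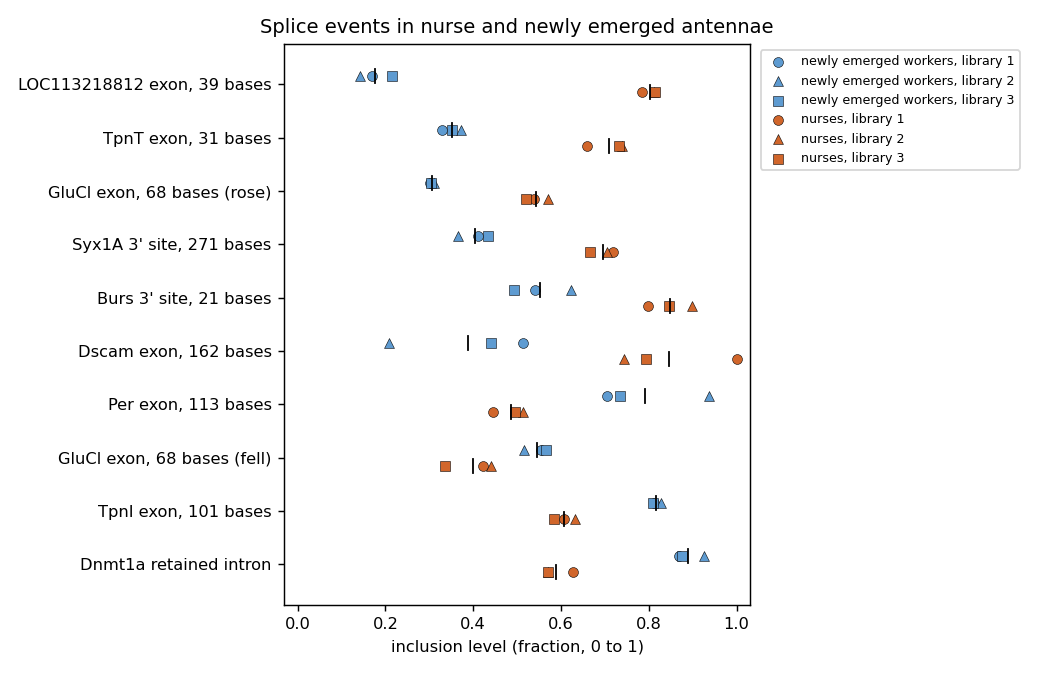
Inclusion level (fraction) of 10 splice events; each symbol is 1 library (circle, triangle and square for libraries 1, 2 and 3) of newly emerged workers (blue) or nurses (orange), and bars are means. The upper 6 events are higher and the lower 4 lower in nurses without overlap, from 0.142 to 0.216 against 0.784 to 0.814 for the LOC113218812 exon.

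Odorant receptor genes were also among the spliced genes, with wide spread between libraries. A 105-base exon of Or170 had levels of 0.677, 0.429 and 0.429 in newly emerged and 0.636, 0.935 and 0.8 in nurse libraries (difference 0.279, adjusted p = 0.0248), with overlap between groups. A 100-base exon of Or58 had 0.364, 0.308 and 0.308 against 0.698, 0.308 and 0.667 (difference 0.231, adjusted p = 0.0354). Of the 6 fits that leave out 1 library, the Or170 call was kept in 2 and the Or58 call in 1. Without nurse library 2 the Or170 difference was 0.206, adjusted p = 0.0946, and without nurse library 1 the Or58 difference was 0.161, adjusted p = 0.13. The Or170 call was also lost on the logit scale (adjusted p = 0.0619) and the Or58 call with the 6 libraries alone (adjusted p = 0.0856). Mean gene levels were low, at 11.4 and 11.7 CPM for Or170 and 2.74 and 4.19 CPM for Or58.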

How the data were processed

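RNA of whole antennae was measured in 12 libraries, of which the 6 of nurses and newly emerged workers were compared. The authors deposited a table of raw read counts for 12319 genes and 5 tables of splice events with a fraction (inclusion level) per library. The protocols and tools in the labels describe a chromatin assay of human cells and cannot apply to these files. For the aligner, counting program, strand, build and splicing program of the bee data, the sources used here give no information. Libraries were grouped by their titles.

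Counts were tested with edgeR 4.0.16 (quasi-likelihood test, TMM factors, filterByExpr, 4 group means over 12 libraries, R 4.3.3) and p-values were adjusted by Benjamini-Hochberg over 11271 genes. CPM used the TMM library sizes. The SE of a log2 fold change was taken from the F statistic. Inclusion levels of all 491 events were tested with limma 3.58.1. Both were also run on simulated data with the same set spread for all genes and for all events. Real spread differs between genes and between events, so those runs do not bear on the uneven ones. Calls are at an adjusted p under 0.05. Counting error is small at these depths for most genes, but not for those at the lowest levels, such as Melt, Obp13 and Fibroin3. Intervals for inclusion levels cannot be had without their read numbers. Alternatives were DESeq2 1.42.0, upper-quartile and RLE factors, no count filter, a fit of 6 libraries, a replicate block, logit inclusion levels and leaving out each library.

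The comparison and the gene lists were chosen with earlier results of these data known, and 12 lists were added after the symbols in the table were read. A list of proteases and serpins had matched other genes and was set aside. Named genes were the 10 largest changes per direction among called genes with a symbol and, separately, LOC genes (at least 5 CPM in the higher group, no overlap), the called list members with the smallest adjusted p, the genes with the highest CPM, and, whatever their result, Mrjp1, Per, Kr-h1, Vg, Or11 and Or2. A further 28 genes were named after their values were seen. Other genes looked at in the same way did not pass and were left out of the text after the alternatives had been run. Of the gene names, 12167 were found in the RefSeq gene list, which gave gene classes and gene order. Deviations of same-numbered libraries correlated at -0.15, 0.26 and 0.14, and the numbers were not taken as pairs. The titles also carry a Rep label, which is the same for nurse libraries 1 and 2 and so differs from the number. Libraries that share a Rep label correlated at 0.18 (newly emerged 2 with nurse 1), 0.26 and 0.14. The replicate block used the numbers, and a block by Rep label was not fitted. No sequence is shown.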

Additional observations from a re-analysis of the deposited data

How the results depend on the processing

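Of 167 named genes, all kept their direction and their side of the threshold with DESeq2 and with RLE factors. With upper-quartile factors 14 of them lost their call, 5 gained one and 3 turned sign. With the 6 libraries alone 7 lost it and 3 gained it, with the replicate block 4 lost it, 2 gained it and 2 turned sign, and with no filter on low counts 1 lost it. Genes that gained a call were brp, Dll, LOC113218812, Melt and Vg with upper-quartile factors (adjusted p = 0.0191 to 0.0427), brp, LOC411083 and Obp13 with the 6 libraries alone (0.0160 to 0.0390), and brp and Obp13 with the block (0.0359 and 0.0443). Of 146 named genes that were called, 114 kept the call in every fit that left out 1 library. Some genes that did not pass were left out of the named set after these fits were seen. The shares of named genes given here therefore describe a selected set. Of 74 named splice events, 56 were called, and 33 of those kept the call in every such fit. On the logit scale 7 events lost a call and 1 gained it, with the 6 libraries alone 3 and 2, and with the block 4 and 2. Leaving out 1 library gave 3262 to 4250 called genes, 1567 to 2052 higher and 1695 to 2312 lower in nurses, 1157 to 1430 with at least 2-fold change, 138 to 153 list genes, 355 to 435 lncRNA genes higher and 73 to 99 lower, 1186 to 1591 protein-coding genes higher and 1617 to 2208 lower, and 264 to 288 splice events, 137 to 158 higher and 127 to 140 lower. Upper-quartile factors raised the protein-coding genes called higher from 1650 to 2502, by a shift of all genes of 0.12 on the log2 scale. The replicate block, by library number, gave 4689 called genes against 4460, and whether the numbers pair libraries is not known. Genes that turned sign had not passed the test: with upper-quartile factors Apd-1 was at 0.063, Eaat-2 at 0.0075 and Per at 0.10, and with the replicate block Apd-1 was at 0.0081 and Def1 at 0.15 (log2 fold changes). Over the fits that left out 1 library, log2 fold changes ran from -0.46 to 0.42 for Apd-1, -0.80 to 1.10 for Def1, -0.11 to 0.19 for Dscam, -0.22 to 0.059 for Eaat-2, -0.063 to 0.096 for Ecr, -0.030 to 0.16 for GluCl, -0.41 to 0.055 for Obp18, -0.013 to 0.14 for Para, -0.14 to 0.064 for Per and -0.33 to 0.22 for Rpl39. Differences in inclusion ran from -0.004 to 0.0755 for a 3' site of TpnCIIb, -0.0417 to 0.144, -0.0722 to 0.177 and -0.0387 to 0.0333 for 3 exclusive exon pairs of Dscam and -0.0257 to 0.0168 for an exon of TpnT. Inclusion depth is unknown, so shares at exactly 0 or 1 may rest on few reads.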
